A study of Mus musculus with 12 samples.

Results

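The 9 major myelin genes were Mbp, Mog, Cnp, Mobp, Cldn11, Mal, Opalin, Ermn and Ugt8a. They were chosen by name, with earlier results of these data known. All 9 were found among the 16389 genes of the table and passed the filter on low values. Their RNA was followed in 12 libraries of cells that carry eGFP under the Aldh1l1 promoter, an astrocyte promoter, sorted from the mouse spinal cord. The labels call these cells astrocytes, whereas the 9 genes are those that myelinating oligodendrocytes express most typically.

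Myelin is the spiral of membrane that oligodendrocytes wrap around axons in the central nervous system. Its compact layers are held together by small proteins on their cytoplasmic faces, its outer surface carries adhesion molecules, and its edges are sealed by tight junctions and kept open by cytoplasmic channels. The membrane is rich in galactolipids, which are made in the oligodendrocyte, and the transcription factors Sox10 and Myrf drive the genes of mature myelin. After spinal cord injury oligodendrocytes die near the lesion, myelin debris persists and is taken up by phagocytes, and new oligodendrocytes form from progenitors.

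The mice were Aldh1l1-EGFP (OFC789Gsat) on a Swiss Webster background, and all groups, the controls included, carried the transgene. Those used for sorting were adult males, and the age stated in the paper is 12 weeks at the lesion. Libraries came from mice without injury (NI, 3 libraries), from mice 1 week (HS 1 week, 3 libraries) or 2 weeks (HS 2 weeks, 2 libraries) after a lateral hemisection at thoracic level 9, and from mice 1 week (FT 1 week, 1 library) or 2 weeks (FT 2 weeks, 3 libraries) after a full transection there. Living eGFP+ cells were sorted from 1 cm of cord centred on the lesion, and each library pooled several animals, so that the spread between libraries is one between pools.

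Each library held 8270643 to 15562378 reads on genes, and 1 read was worth 0.0612 to 0.134 normalized counts. The sort held RNA of several cell types. The sum of 16 astrocyte genes ranged from 812.3 to 11920 normalized counts and Aldh1l1 itself from 10.2 to 126.7, so that the defining gene of the labelled cell type was present in every library. The sum of 17 microglia and macrophage genes ranged from 922.3 to 13931, that of 8 pericyte and fibroblast genes from 153.5 to 11579, that of 12 neuronal genes from 97.3 to 399.2 and that of 9 endothelial genes from 28.3 to 107. The 9 myelin genes took 2.23% to 4.24% of all normalized counts of a library, with a sum of 18837 to 45298. This sum was above that of the 16 astrocyte genes in 12 of 12 libraries, by 2.60-fold to 33.7-fold. The lists differ in the number and kind of their genes. In such bulk libraries a larger share of oligodendrocyte material and more myelin RNA per cell cannot be told apart, and the same holds for falls.

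The promoters of 8 of the 9 genes were found in a RefSeq table of GRCm38.p6, from 250 bases before to 50 bases after the gene's start. They are shown for Mobp, which moved most closely with Mbp across libraries, for Cldn11, which was higher than in every NI library in every injured library, and for Opalin, which did not move with the others. The first 280 bases of each window are printed 5′ to 3′ on the gene's strand, chr9:120149492-120149771 (+) for Mobp, chr3:31149670-31149949 (+) for Cldn11 and chr19:41077084-41077363 (-) for Opalin. Capitals mark matches on either strand to 4 motifs, a SOX motif (ACAAAG), a motif of the Myrf type (CTGGCAC), an E-box (CAGCTG) and a GC box (GGGCGG).
Mobp: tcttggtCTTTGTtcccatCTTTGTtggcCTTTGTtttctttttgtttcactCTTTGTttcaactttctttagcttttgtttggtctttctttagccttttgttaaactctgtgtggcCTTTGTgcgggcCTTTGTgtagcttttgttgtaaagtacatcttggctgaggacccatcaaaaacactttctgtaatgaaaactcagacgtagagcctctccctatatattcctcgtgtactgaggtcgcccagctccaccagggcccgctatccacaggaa
Cldn11: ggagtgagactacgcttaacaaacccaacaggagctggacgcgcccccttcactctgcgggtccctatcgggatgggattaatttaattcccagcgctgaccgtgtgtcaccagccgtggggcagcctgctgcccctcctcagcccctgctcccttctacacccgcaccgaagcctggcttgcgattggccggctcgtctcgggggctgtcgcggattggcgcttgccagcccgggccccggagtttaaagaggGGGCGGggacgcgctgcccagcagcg
Opalin: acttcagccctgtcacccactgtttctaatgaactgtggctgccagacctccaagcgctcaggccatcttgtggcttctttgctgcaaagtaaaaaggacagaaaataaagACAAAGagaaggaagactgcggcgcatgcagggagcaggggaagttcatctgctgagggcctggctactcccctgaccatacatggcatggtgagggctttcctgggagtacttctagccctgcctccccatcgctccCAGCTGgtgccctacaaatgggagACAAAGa
The SOX motif occurred 6 times in the window of Mobp, 2 times in that of Opalin, 1 time in that of Cnp, and not in those of Cldn11, Mog, Mal, Ermn and Ugt8a. It was present in 18.7% of 32851 windows of the same length. A match to the Myrf type motif, present in 5.01% of windows, was found in the windows of Cnp and Opalin, in Opalin beyond the printed bases. The E-box, present in 16.3% of windows, was found in Opalin alone among these genes. The GC box, present in 35.7% of windows, was found 3 times in Ugt8a with 2 of the matches overlapping, 2 times in Cnp and 1 time in Cldn11. The GC content was 43.3% in Mobp, 54.3% in Opalin, 66.3% in Cldn11 and 78.3% in Ugt8a, and its median over all windows was 52.7%. These are matches of letters only.

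The 9 genes differed widely in their level per length. Mean normalized counts per kb of exon over the 12 libraries were 1896 for Cnp, 1556 for Cldn11, 1507 for Mbp, 1393 for Mog, 624.9 for Mal, 528.1 for Ermn, 308.5 for Ugt8a, 124.3 for Mobp and 64.7 for Opalin. Per kb of exon, Mog lay above Mal, Ermn above Ugt8a and Ugt8a above Mobp in 12 of 12 libraries. Mobp lay above Opalin in 11, and Mal above Ermn in 9. Among the highest genes Cnp lay above Cldn11 in 10 libraries, Cldn11 above Mbp in 8 and Mbp above Mog in 6. None of these orders was tested. The place of Mbp depended on the length used, because this gene has many long and short transcripts. Per kb of its longest transcript Mbp came first with 2661, and per kb of coding sequence it came first with 17021. Other orders also turned with coding sequence as the length, where Mobp lay above Ugt8a in 12 of 12 libraries and Mal above Mog in 11. Opalin came last under all 3 lengths.

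**Figure D1:**
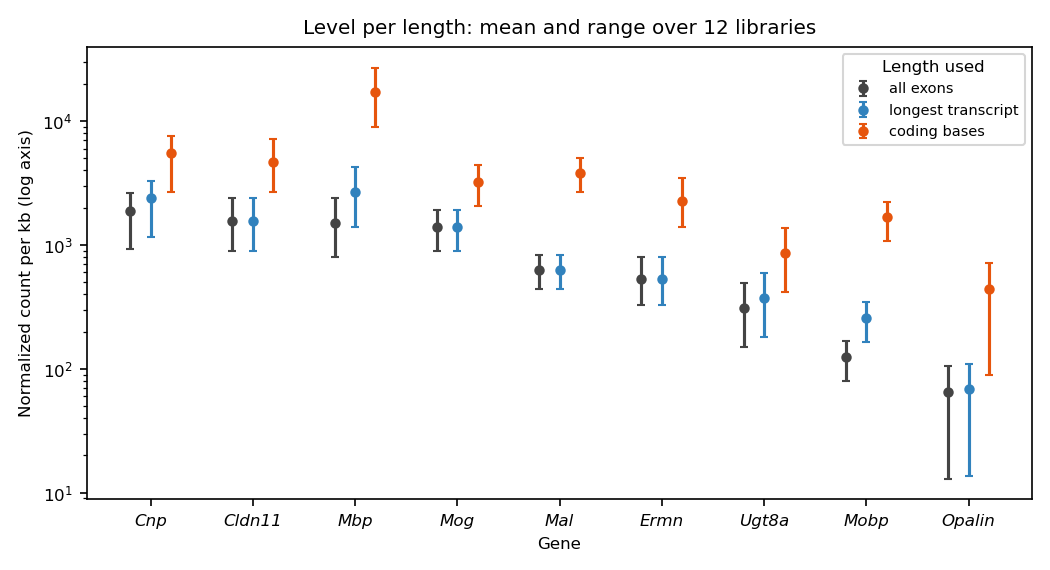
Normalized count per kb (log axis) of each myelin gene, as the mean (point) and the range (bar) over 12 libraries, with length taken as all exons (grey), the longest transcript (blue) or the coding bases (orange). Cnp is highest per kb of exon (1896), Mbp per kb of longest transcript (2661), and Opalin is lowest with each length.

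Mbp encodes myelin basic protein, which binds the cytoplasmic faces of the compact layers together, on chromosome 18 (82475146 to 82585637, plus strand, GRCm38). Its normalized count was 13534, 6750 and 7585 in the NI libraries. It was 20283, 14896 and 10739 at HS 1 week and 10050 and 11770 at HS 2 weeks. At FT 1 week it was 15127, and at FT 2 weeks 14610, 19333 and 8509. NI replicate 1 was far above the other NI libraries and within the range of the injured ones, so that groups overlapped except for the single FT 1 week library. The log2 change against NI was 0.74 (SE 0.57) at HS 1 week, 0.30 (0.63) at HS 2 weeks, 0.77 (0.80) at FT 1 week and 0.60 (0.57) at FT 2 weeks, and every adjusted p was 0.728 or higher. The within-group SD of Mbp on the log2 scale was 0.50, which is higher than that of 77.1% of all genes.

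Mobp, the myelin-associated oligodendrocyte basic protein of compact myelin, lies on chromosome 9 (120149707 to 120181484, plus strand, GRCm38). Its NI values were 970.3, 655.8 and 545.8. Injured libraries held 1141, 1031 and 668.5 at HS 1 week, 707.3 and 787.7 at HS 2 weeks, 967.9 at FT 1 week, and 976.6, 1121 and 642 at FT 2 weeks. The 4 injured libraries above all NI libraries were 2 of HS 1 week and 2 of FT 2 weeks, and the groups overlapped. Changes against NI were 0.39, 0.086, 0.46 and 0.34 on the log2 scale, in the order HS 1 week, HS 2 weeks, FT 1 week, FT 2 weeks, and adjusted p was at least 0.719. An unnamed gene model, Gm38642, shares exon sequence with Mobp on the same strand in the GENCODE annotation. It was not among the genes of the table, so no value is listed for it. Whether reads from the shared exons were lost to Mobp was not tested.

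Mog, myelin oligodendrocyte glycoprotein, sits on the outer surface of the sheath and is encoded on chromosome 17 (37010743 to 37023398, minus strand). It showed 3177, 1529 and 1767 normalized counts in NI. Values were 2818, 3274 and 1874 at HS 1 week, and 1827 and 2441 at HS 2 weeks. FT libraries gave 2506 at 1 week and 2362, 2719 and 2190 at 2 weeks. Only 1 of the 9 injured libraries, HS 1 week replicate 2, exceeded NI replicate 1. The log2 changes ran from 0.044 (HS 2 weeks) to 0.34 (HS 1 week), with adjusted p from 0.839 to 0.990.

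Cnp, the cyclic nucleotide phosphodiesterase of the non-compact cytoplasmic channels, is on chromosome 11 (100574904 to 100591729, plus strand). The NI libraries held 7743, 4366 and 5092. After HS it was 8948, 9526 and 7462 at 1 week and 7471 and 5672 at 2 weeks. After FT it was 7497 at 1 week and 8577, 7059 and 3393 at 2 weeks, where replicate 3 lay below every NI library. Changes were 0.63, 0.23, 0.43 and 0.085 on the log2 scale in the same order of groups, with adjusted p from 0.764 to 0.963. Its exons overlap those of Dnajc7 on the opposite strand, a gene listed at 75.5 to 186.7 in these libraries, and the kit is not stated to keep strand.

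Cldn11 encodes claudin 11, the protein that forms the tight junction strands of central myelin, on chromosome 3 (31149920 to 31164324, plus strand). It was the only one of the 9 genes that was higher in all 9 injured libraries than in all 3 NI libraries. The NI values were 2191, 1685 and 1671. Those of HS 1 week were 4439, 3622 and 2787, and those of HS 2 weeks 2247 and 3432. FT 1 week held 3778 and FT 2 weeks 3357, 3216 and 2490. The lowest injured value, HS 2 weeks replicate 1, lay close above NI replicate 1, and the next lowest was 2490. Of all genes tested, 1.97% were likewise higher in every injured library than in every NI library.

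In limma-trend the log2 change of Cldn11 against NI was 0.95 (SE 0.32, 95% interval 0.24 to 1.67) at HS 1 week and 0.60 (SE 0.36, -0.20 to 1.39) at HS 2 weeks. It was 1.04 (SE 0.46, 0.035 to 2.05) at FT 1 week and 0.71 (SE 0.32, -0.0045 to 1.42) at FT 2 weeks. The unadjusted p was 0.0134 at HS 1 week and 0.0437 at FT 1 week, while the adjusted p over all genes was 0.563, 0.759, 0.430 and 0.464 in the order of the groups. Cldn11 did therefore not pass the test against NI in any group, and its change at HS 2 weeks was 0.90 without replicate 1 and 0.29 without replicate 2 of that group. With the 4 injured groups given equal weight against NI, the change was 0.83 (0.23 to 1.42), or 1.77-fold, with an adjusted p of 0.220 in limma-trend and a false discovery rate of 0.176 in the likelihood ratio test of edgeR. Cldn11 was also the gene with the lowest within-group SD of the 9, 0.30 on the log2 scale.

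Mal, a proteolipid of membrane rafts that takes part in the transport of myelin components, is on chromosome 2 (127633226 to 127656695, minus strand). In NI it was 1866, 1490 and 1415. In the injured libraries it was 2300, 2091 and 1220 at HS 1 week, 1472 and 1910 at HS 2 weeks, 2134 at FT 1 week, and 1684, 1751 and 1500 at FT 2 weeks. HS 1 week held both its highest and its lowest library. The log2 changes were 0.19, 0.087, 0.43 and 0.056, the smallest of the 9 genes at HS 1 week, and adjusted p was 0.752 or higher.

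Opalin, a glycoprotein of the oligodendrocyte membrane, is on chromosome 19 (41061710 to 41077113, minus strand) and had the fewest reads of the 9 genes. NI held both extremes, 38.4 in replicate 1 and 206 and 308.1 in replicates 2 and 3. The injured libraries lay between them, with 269, 133.1 and 236.3 at HS 1 week and 164.1 and 222.2 at HS 2 weeks. FT libraries held 223.1 at 1 week and 140.6, 139.9 and 208.1 at 2 weeks. The 38.4 of NI replicate 1 rested on 488 reads, which gives a 95% Poisson interval of 35.0 to 41.9 for counting error alone, well below the next library. The within-group SD was 0.91, higher than that of 93.9% of genes, and the log2 changes of 0.59, 0.50, 0.72 and 0.24 had standard errors of 0.62, 0.69, 0.88 and 0.62. These positive estimates rested on NI replicate 1, without which the changes of Opalin were -0.30, -0.40, -0.17 and -0.65. In the likelihood ratio test the change at FT 2 weeks was -0.18 with all libraries. No injured library was outside the NI range.

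Ermn encodes ermin, a cytoskeletal protein of mature oligodendrocytes, on chromosome 2 (58045113 to 58052864, minus strand). It stood at 1510, 1186 and 1291 in NI. HS libraries held 2870, 1844 and 1255 at 1 week and 1951 and 2140 at 2 weeks. FT libraries held 2334 at 1 week and 2252, 2917 and 1485 at 2 weeks. Of the 9 injured libraries 7 lay above all NI libraries, and replicate 3 of HS 1 week and of FT 2 weeks lay among them. Changes were 0.51 (SE 0.36), 0.63 (0.40), 0.82 (0.51) and 0.69 (0.36) on the log2 scale, and the lowest adjusted p was 0.518, at FT 2 weeks. The gene overlaps Galnt5 on the opposite strand, which was listed at no more than 2.02 in any library.

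Ugt8a, the galactosyltransferase that makes the cerebrosides of myelin, is on chromosome 3 (125865271 to 125938619, minus strand). Its NI values were 1601, 969.5 and 969.9. It reached 2229, 1595 and 1167 at HS 1 week, 1607 and 1546 at HS 2 weeks, 1561 at FT 1 week and 1515, 1354 and 678.5 at FT 2 weeks. FT 2 weeks replicate 3 was the lowest of the 12 libraries and HS 1 week replicate 1 the highest. The change was 0.49 at HS 1 week, 0.46 at HS 2 weeks and 0.45 at FT 1 week, and it was -0.038 at FT 2 weeks, the only negative estimate among the 36 comparisons of a member with NI. Adjusted p was at least 0.770.

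**Figure D2:**
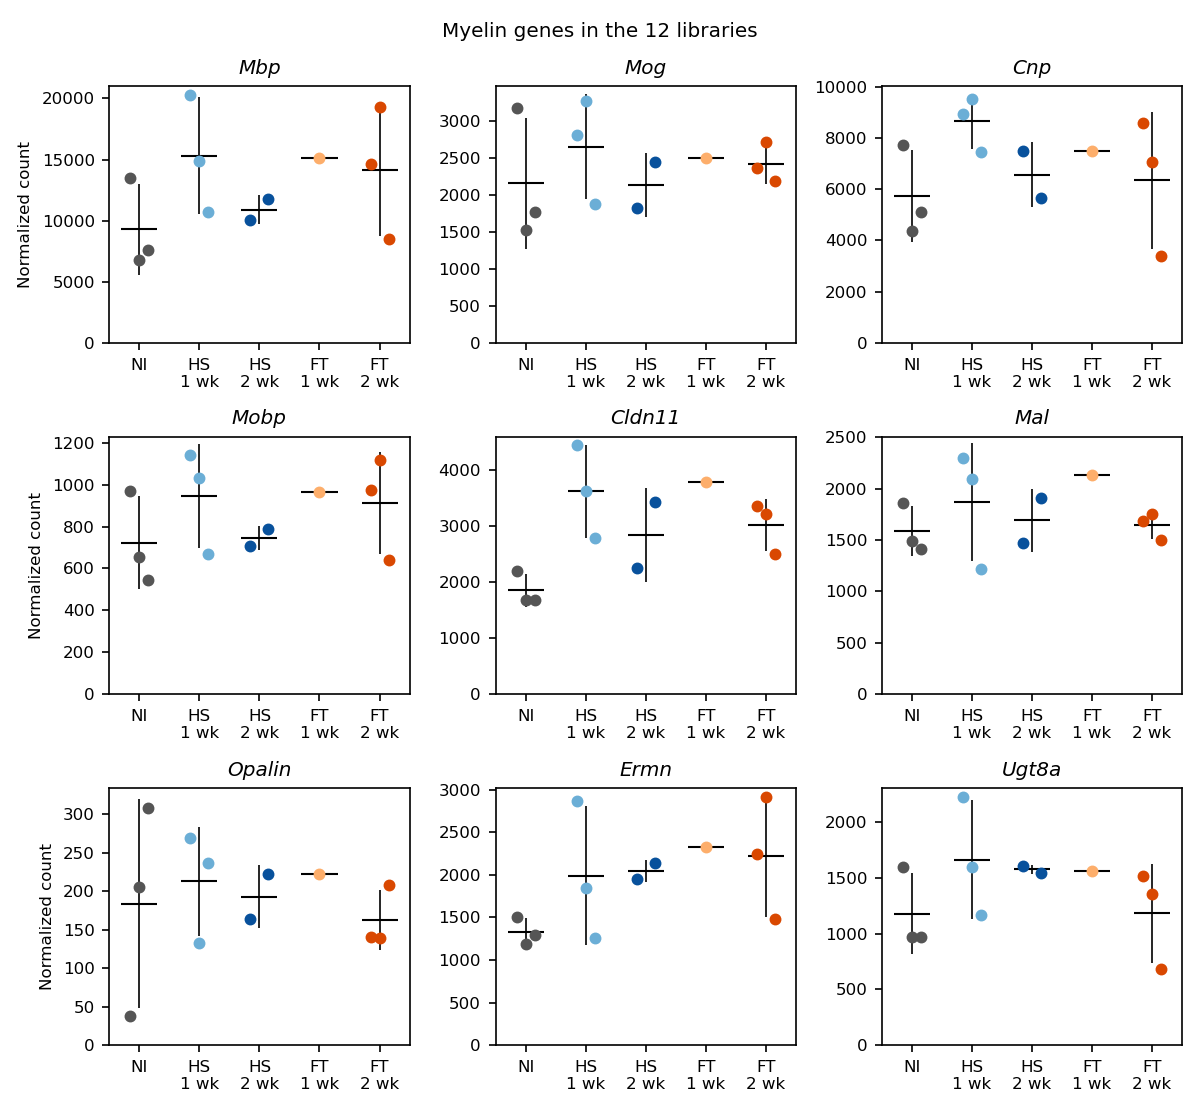
Normalized count of each myelin gene in each library (points), with the group mean (horizontal bar) and SD (vertical bar, groups of 2 or more libraries), for NI, HS and FT at 1 and 2 weeks (wk). Cldn11 is the only gene whose 9 injured libraries, 2247 to 4439, all lie above the 3 NI libraries, 1671 to 2191.

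Against NI, the estimates of the myelin genes were mostly above 0, but none of the 9 genes passed the test, with calls made at a change of 2-fold or more and an adjusted p below 0.05. At HS 1 week 9 of 9 estimates were positive with a median of 0.51 on the log2 scale, and at HS 2 weeks 9 of 9 with a median of 0.30. At FT 1 week 9 of 9 were positive with a median of 0.46, and at FT 2 weeks 8 of 9 with a median of 0.24. Without NI replicate 1 it was 8 of 9 in each, Opalin being the exception. The median over all genes was between -0.030 and -0.015 in these comparisons. The 9 genes are not independent of each other, and the 4 comparisons share the NI libraries. Single libraries moved these medians, to 0.27 at HS 1 week without HS 1 week replicate 1, to 0.10 or 0.19 at HS 2 weeks without NI replicate 2 or 3, and to 0.16 or 0.48 at FT 2 weeks without NI replicate 3 or FT 2 weeks replicate 3.

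In limma-trend 0 of 9 genes were called in each comparison with NI, where the share of all genes called was 0.0061% at HS 1 week, 0.0122% at HS 2 weeks, 0.452% at FT 1 week and 0.0427% at FT 2 weeks. At an unadjusted p under 0.05 the 9 genes gave 1, 0, 1 and 0, both times Cldn11, beside 7.66%, 7.49%, 11.2% and 10.8% of all genes. The likelihood ratio test of edgeR, the kind of test the study used, called 0 of the 9 as well, and 0.372%, 0.757%, 1.81% and 2.22% of all genes. For the mean of the 4 injured groups 0 of 9 were called by both, limma-trend calling 0.293% and the likelihood ratio test 4.09% of all genes. Under array quality weights, an alternative that gives less weight to the more variable libraries, Mbp, Cldn11, Ermn and Ugt8a were called higher at HS 1 week with log2 changes of 1.35, 1.30, 1.07 and 1.03. The share of all genes called under these weights was not counted, so these 4 calls cannot be taken as particular to the myelin genes.

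**Figure D3:**
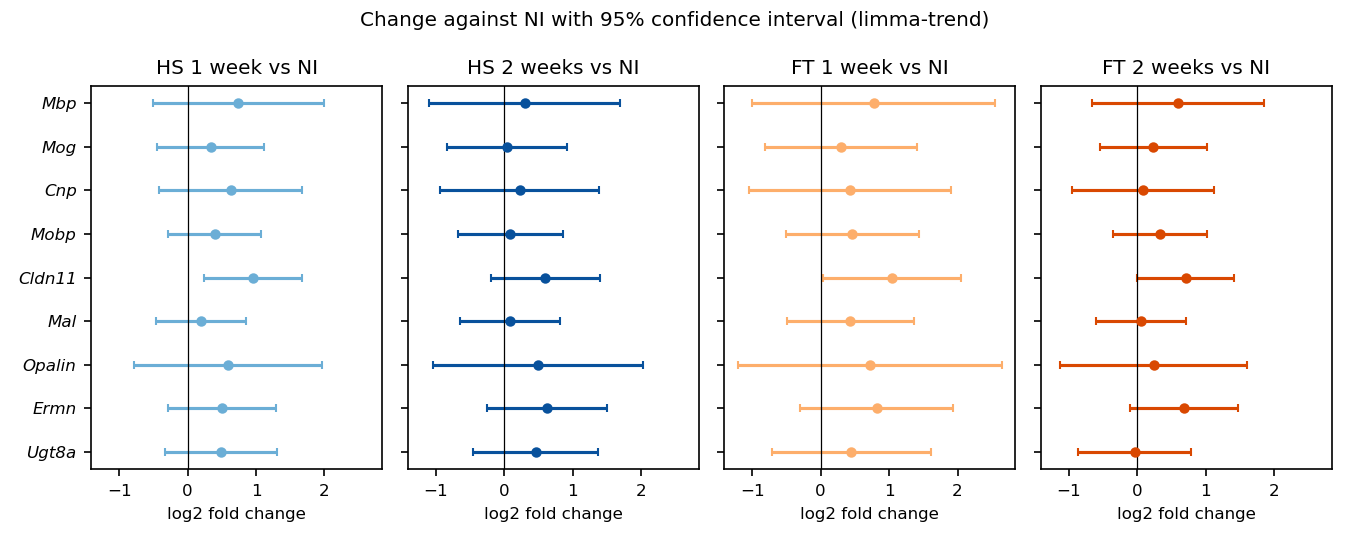
Log2 fold change of each myelin gene against NI in limma-trend (point) with its 95% confidence interval (bar), 1 panel per injured group. All intervals include 0 apart from those of Cldn11 at HS 1 week (0.24 to 1.67) and FT 1 week (0.035 to 2.05).

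Counted by library, 1 of the 9 genes (Cldn11) was above all NI libraries in every library of HS 1 week, as were 7.31% of all genes. At HS 2 weeks it was 2 of 9 (Cldn11 and Ermn) beside 12.9% of all genes. The single FT 1 week library was above NI for 4 of 9 (Mbp, Cldn11, Mal and Ermn) beside 27.2%, and at FT 2 weeks it was 1 of 9 (Cldn11) beside 6.92%. None of the 9 was below all NI libraries in every library of a group.

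Severity and time were then compared among the injured groups. FT against HS gave a median change over the 9 genes of 0.068 at 1 week, with 6 of 9 positive, and of 0.064 at 2 weeks, with 5 of 9 positive. Neither sign held when 1 library was left out, since the median was -0.16 at 1 week without HS 1 week replicate 3 and -0.077 at 2 weeks without FT 2 weeks replicate 2, and it was 0.25 without HS 1 week replicate 1 and 0.26 without FT 2 weeks replicate 3. Of all genes 0.348% were called at 1 week and 0% at 2 weeks, and 0 of the 9. The largest difference at 2 weeks was that of Ugt8a, -0.50 with a standard error of 0.42. No member had an unadjusted p under 0.05 in any of these comparisons.

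Between 1 and 2 weeks the estimates were mostly negative. After HS, 8 of 9 were, with a median of -0.29, Ermn being the exception at 0.12 (median -0.056 without HS 2 weeks replicate 1), and after FT 9 of 9 were, with a median of -0.33. The shares of all genes called were 0% and 0.384%, and 0 of the 9 genes were called in either. FT 1 week is 1 library, and without FT 2 weeks replicate 3 the median after FT was 0.016, so that this direction rested on that library. The interaction of time and severity had a median of 0.020 over the 9 genes, 0 of 9 called and 0.0854% of all genes called.

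Across the 12 libraries, 8 of the 9 genes varied together. All 28 pairs among the genes other than Opalin had a Pearson r above 0, from 0.485 to 0.946 with a median of 0.741, on log2 values. After the group means were removed the range was 0.401 to 0.941 and the median 0.801, so that the common movement was as large within groups as over all libraries. Mbp and Mobp, both basic proteins of compact myelin, formed the closest pair (0.946), followed in their own neighbourhoods by Cnp with Ugt8a (0.875), Ermn with Mbp (0.859) and Cldn11 with Mbp (0.851). These correlations are descriptions over 12 libraries in which all genes share the library, its depth and its scaling.

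Opalin stood apart. Its r with the other 8 genes ran from -0.54 (Mog) to 0.087 (Cldn11), and 6 of the 8 were below 0. Without NI replicate 1, the library in which Opalin was lowest, the range was -0.49 to -0.14 and all 8 were below 0. In that library Opalin made up 0.118% of the sum of the 9 genes against 1.09% and 1.49% in NI replicates 2 and 3. In the injured libraries its share lay between 0.350% (HS 1 week replicate 2) and 0.986% (FT 2 weeks replicate 3).

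**Figure D4:**
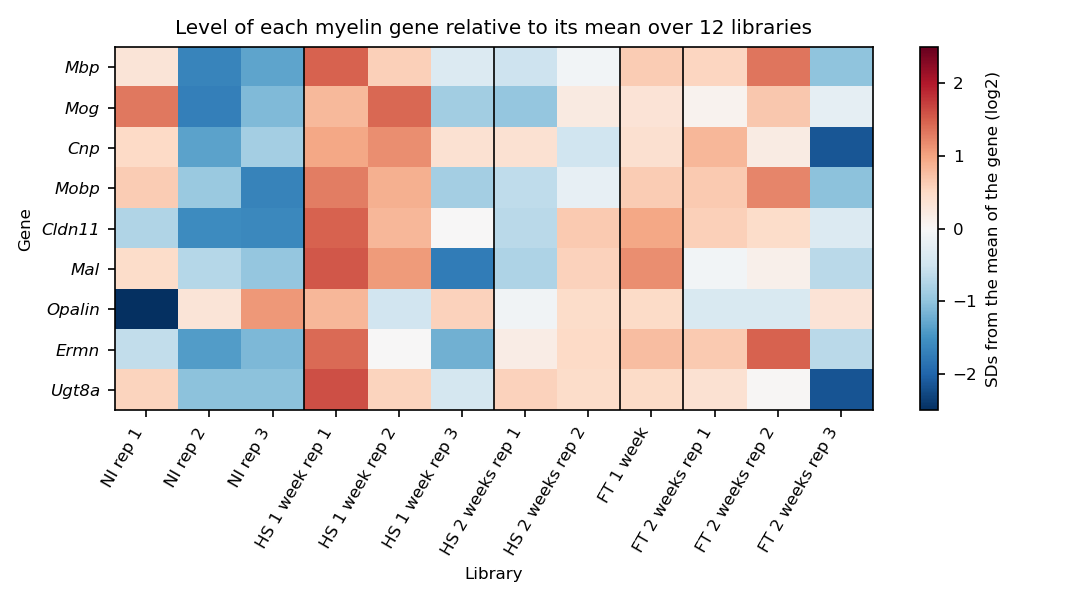
Level of each myelin gene (rows) in each library (columns), as the number of SDs from the mean of that gene on the log2 scale, blue below and red above, with lines between groups. Rows other than Opalin share high values in HS 1 week replicate 1 and low ones in NI replicate 2, while Opalin is lowest in NI replicate 1 (38.4 normalized counts).

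The genes whose log2 level was most like the mean of the 9, out of 9348 genes with a mean of at least 10, were Extl2 (r = 0.956), Fam57a (0.948), Svip (0.948), Arpp19 (0.944), Stx12 (0.941), Hsd17b4 (0.937), Enpp2 (0.936) and Wipi1 (0.933), over 12 libraries. Enpp2, or autotaxin, is an enzyme that oligodendrocytes secrete, and Hsd17b4 is an enzyme of peroxisomal fatty acid breakdown.

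Other genes of the sheath are given beside the 9. Of 28 further genes of myelin proteins, among them Mag, 24, 21, 27 and 23 had positive estimates against NI in the order of the groups, with medians of 0.38, 0.19, 0.30 and 0.14. None of the 28 was called in limma-trend. Mag, the adhesion glycoprotein of the innermost layer, had log2 changes of 0.50, 0.32, 0.42 and 0.13. When the 9 genes were expressed relative to other oligodendrocyte genes, their medians dropped to 0.26, 0.090, 0.16 and 0.097.

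Around Ugt8a, 13 genes of galactolipid synthesis and breakdown had medians of 0.32, 0.16, 0.37 and 0.11, with 11, 9, 11 and 10 positive and none called. Fa2h, which hydroxylates the fatty acids of galactolipids, had estimates of the other sign, -0.27, -0.34, -0.64 and -0.57, with a lowest adjusted p of 0.556. Among 6 genes of oligodendrocyte gap and tight junctions, the class of Cldn11, medians were 0.050, 0.10, 0.18 and 0.22 with none called.

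Of 13 transcription factors of the lineage none was called in limma-trend, and their medians were -0.037, 0.092, 0.042 and 0.13. Myrf, which drives the genes of mature myelin, was 239.7 to 330.7 in NI and 286.7 to 514 in injured libraries, with estimates of 0.54, 0.66, 0.74 and 0.35 and adjusted p of at least 0.433. Olig2, a factor of the whole lineage, was 33.2 to 97.5 in NI and 20.3 to 43.2 in injured libraries, with estimates of -0.95, -0.80, -0.82 and -1.16. For the mean of the injured groups the likelihood ratio test called 2 of the 13 lower, Olig1 and Olig2 (false discovery rate of Olig2 0.0293). It called 4.09% of all genes there in either direction. In limma-trend Olig2 was not called for this mean (adjusted p = 0.248). The mean of Sox10 was 158.6 ± 24.6 (SD, n = 3) without injury, and the lowest group mean with replicates was 121.1 ± 25.1 (SD, n = 3), at FT 2 weeks.

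Genes of progenitors and newly formed oligodendrocytes had estimates on the other side of 0 from the myelin genes. Of 12 such genes 1, 1, 1 and 2 were positive against NI, with medians of -0.51, -0.99, -1.77 and -0.90. None was called in limma-trend, and the likelihood ratio test called 2 lower at FT 1 week (Ptprz1 and C1ql1) and 5 lower at FT 2 weeks (Gpr17, Bmp4, Neu4, Cacng4 and C1ql1), where it called 1.81% and 2.22% of all genes in either direction. For the mean of the injured groups it called 8 of the 12 lower, beside 4.09% of all genes. Pdgfra, the receptor that marks progenitors, averaged 94.3 ± 36.1 (SD, n = 3) without injury and it averaged 91.1 ± 5.23 (SD, n = 3) 2 weeks after FT, and the FT 1 week library held 24.6.

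Schwann cells, which form the myelin of peripheral nerve and express several of the same genes, were followed by 9 genes, whose sum was 36.4 to 172.3. Their medians against NI were -0.79, -0.96, -0.89 and -0.40, with 2, 2, 3 and 3 positive, and none was called in limma-trend.

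The RNA of other cell types also differed between libraries, and its part in the levels of the 9 genes was not tested beyond the values given here. The 5 libraries with a microglia and macrophage sum of 6115 to 13931 were the FT 1 week library, replicate 1 of HS 2 weeks, replicate 3 of HS 1 week and replicates 2 and 3 of NI, and the other 7 had 922.3 to 3768. By group this sum was 922.3 to 8232 in NI, 983.7 to 13931 at HS 1 week, 2193 to 13423 at HS 2 weeks, 10786 at FT 1 week and 1533 to 2637 at FT 2 weeks. Of its 17 genes 8, 15, 15 and 2 had positive estimates against NI, none was called in limma-trend, the likelihood ratio test called Tmem119 lower at FT 2 weeks, and none was at 0 in any library. Of the 16 astrocyte genes 7, 3, 2 and 15 had positive estimates, with medians of -0.098, -0.58, -2.20 and 0.76, and of the 8 pericyte and fibroblast genes 2, 8, 2 and 8, with medians of -0.45, 0.57, -0.50 and 1.499. The sum of the neuronal genes was 97.3 to 229.5 in NI, 180.9 to 368.2 at HS 1 week, and 236.8 to 399.2 in the HS 2 weeks and FT libraries, all above NI. Of these 12 genes 4, 4, 3 and 8 had positive estimates against NI, with medians of -0.13, -0.13, -1.02 and 0.17. For the mean of the injured groups 3 of the 12 were positive, with a median of -0.32. There limma-trend called Tubb3 and Eno2 higher, beside 0.293% of all genes called in either direction. Among the 5, 6 of the 9 genes were higher in all 3 injured libraries than in both NI libraries, as were 21.4% of all genes. Among the 7, NI replicate 1 was the only control, and 2 of 9 (Cldn11 and Opalin) were higher than it in all 6 injured libraries, beside 16.7% of all genes, and for Opalin this control was the lowest of the 12 libraries. This split was made after the values had been seen. Without NI replicate 1 the medians against NI were 0.65, 0.47, 0.69 and 0.55, and 0 of the 9 genes were called.

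**Figure D5:**
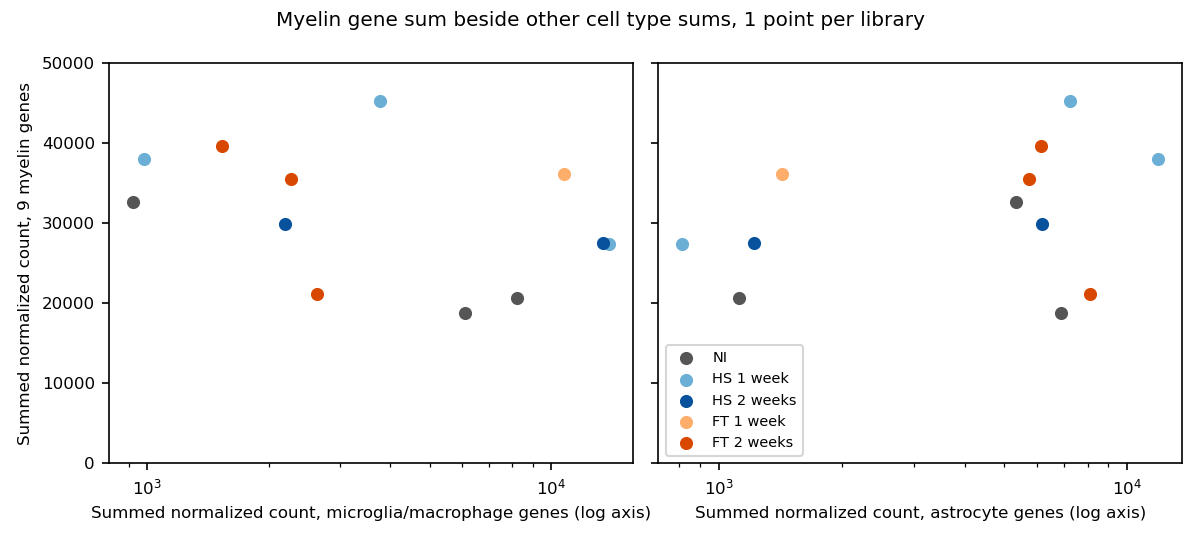
Summed normalized count of the 9 myelin genes in each library (points, coloured by group) against the sum of 17 microglia and macrophage genes (left) and of 16 astrocyte genes (right), both on log axes. The myelin gene sum runs from 18837 (NI replicate 2) to 45298 (HS 1 week replicate 1), while the microglia and macrophage sum runs from 922.3 to 13931.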

How the data were processed

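PolyA RNA of sorted cells was amplified (SMARTer Ultra Low), tagmented (Nextera) and sequenced. Per the submitters' notes and the study's methods, TopHat2 2.0.9 was used for alignment (mm10, GRCm38), HTSeq 0.5.4p3 for counting and edgeR 3.3.6 for normalization by library size, after low genes had been dropped. The deposited values are a signal, that is, read counts scaled by the authors with a single factor in each library. The totals of the libraries ran from 846082 to 1133494, so the values were not scaled to equal totals. The factors were 0.9988 to 0.9991 times those of the trimmed mean method (TMM) of edgeR. Dividing each column by the worth of 1 read returned whole reads, with a largest departure of 8.15e-10, and these reads served edgeR 4.0.16 and DESeq2 1.42.0.

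Log2(normalized count + 1) was fitted by limma-trend (limma 3.58.1, R 4.3.3) in a model of the 5 groups, over the 16388 genes whose mean reached 0.5 in any group. P-values were adjusted over all of them (Benjamini-Hochberg). Fold changes are on this scale. Replicates are those of the labels, which give 1 library for FT 1 week, whose comparisons borrow the spread of the other groups.

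The members and gene lists were chosen with earlier results of these data known. All 9 members are named, and of each list its defining markers and called genes, apart from a few genes whose results are left out. Alternatives covered pseudocount, filter, scaling, weights, test and left-out libraries, and fits were tested on simulated data. Positions are from the GENCODE annotation of GRCm38.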

Additional observations from a re-analysis of the deposited data

How the results depend on the processing

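The number of called genes among the 9 changed in 1 setting. With array quality weights 4 were called higher at HS 1 week against NI, and 0 in every other comparison and alternative tried. The share of all genes called under these weights was not counted. Of 1134 values of a member in a comparison under an alternative, 1130 stayed on the same side of the threshold and 4 were now past it.

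The medians over the 9 genes ranged from 0.26 to 0.88 at HS 1 week, 0.074 to 0.47 at HS 2 weeks, 0.16 to 0.69 at FT 1 week and 0.097 to 0.55 at FT 2 weeks, and stayed above 0. With 1 library left out at a time they ranged from 0.27 to 0.72, 0.10 to 0.47, 0.37 to 0.69 and 0.16 to 0.55. With all libraries rescaled to the same total, the median at HS 1 week was 0.30 in place of 0.51. The change of Mal there was then -0.018 in place of 0.19. Between injured groups they were -0.17 to 0.32 for FT against HS at 1 week, -0.11 to 0.26 at 2 weeks, -0.50 to -0.056 for HS 2 weeks against HS 1 week, -0.62 to 0.016 for FT 2 weeks against FT 1 week and -0.39 to 0.32 for the interaction. The log2 change of Cldn11 at HS 1 week was 0.71 to 1.30, with adjusted p from 0.00742 (array quality weights) to 0.979. For the mean of the injured groups the change of Cldn11 was 0.99 with an adjusted p of 0.0103 under array quality weights, and 0.88 with 0.0392 with the microglia and macrophage sum as a covariate, which was chosen after seeing the data, and both are below the 2-fold limit.

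Same-numbered libraries had r from -0.48 to 0.72 between their deviations from the group means. The highest were 0.72 for replicate 3 of NI and HS 1 week and 0.60 for replicate 2 of HS 1 week and HS 2 weeks. Differently numbered libraries were not compared, so whether the numbers pair libraries was not tested. A replicate block, fitted without the unnumbered FT 1 week library, called 0 of the 9 genes and gave a median of 0.074 at HS 2 weeks. Depth was not limiting for these genes, whose fewest reads, 488, carry a counting error of 4.53%.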

Other observations

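Apod and Klk6, genes of some mature oligodendrocytes, were looked at beside Opalin after its values had been seen. In NI replicate 1, where Opalin was lowest, Apod was 20876 normalized counts against 2570 and 2460 in NI replicates 2 and 3. Klk6 was 4283 against 860.5 and 916.6. The sum of the 8 pericyte and fibroblast genes also differed between these libraries, with 7005 in NI replicate 1 against 643.1 and 458.9. Its part in the levels of Apod and Klk6 was not tested. In the injured libraries Apod ranged from 2471 to 28329 and Klk6 from 1501 to 7944. Over the 12 libraries the r with Opalin was -0.55 for Apod and -0.37 for Klk6, and that with the mean of the 9 myelin genes was 0.55 and 0.71, as descriptions.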
